A study of Mus musculus with 7 samples.

Results

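The coreceptors Cd4, Cd8a and Cd8b1 and 7 further genes were followed across RNA-Seq libraries of sorted double-positive (DP) thymocytes of 4 mouse genotypes. The further genes, listed as markers of the DP stage, were Cd2, Cd24a, Themis, Trat1, Arpp21, Aqp11 and Nrgn. Of these, Nrgn was low in WT DP cells, so its level there does not mark the stage. The 10 genes were taken by symbol from a table of 12092 gene symbols, and all 10 had 1 entry each and passed the filter on low values, a mean of at least 0.5 FPKM (fragments per kilobase of exon model, scaled to the mapped reads of the library). Each library came from the thymus of 1 mouse recorded as aged 4 to 5 weeks, with cells gated as TCRγδ- CD4+ CD8+. The methods of the study give an age of 5 weeks for this round of sequencing. The mice were B6/129 hybrids from shared litters. LP mice (L-DKO pTαKO) carried Id2 f/f and Id3 f/f alleles deleted by LckCre and also lacked pTα, and had 2 libraries. L-DKO mice carried the same floxed alleles and LckCre with pTα intact, and had 2 libraries. pTαKO mice lacked pTα only, and 1 of their 2 samples, replicate 2, was measured, since the submitters removed replicate 1 for low sequencing quality and it was not analysed here. WT had 1 library. LckCre is expressed under a promoter of Lck, so Id2 and Id3 are deleted in thymocytes and not in the germ line, whereas pTα is absent from every cell.

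DP thymocytes carry both CD4 and CD8 on their surface while the alpha chain of the T cell receptor (TCR) is assembled, before selection. CD4 binds MHC class II and CD8, a dimer of an alpha and a beta chain, binds MHC class I, and the tail of CD4 and of CD8 alpha brings the kinase Lck to the receptor. Entry into the stage normally needs the pre-TCR, of which pTα is the invariant chain, and Id2 and Id3 hold back the E proteins, transcription factors that bind the E-box sequence CANNTG. The question addressed with these genes was whether cells sorted as DP from the 4 genotypes carried the transcripts of that stage at like levels. The gate itself used CD4 and CD8 protein, so the RNA of Cd4, Cd8a and Cd8b1 is not independent of how the cells were chosen.

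The promoter windows of the member with the widest range and of a coreceptor are shown because 1 arm of the design releases E proteins. They are RefSeq windows on GRCm38.p6 with 250 bases before and 50 bases after the annotated start, written 5′ to 3′ along the strand of the gene, and capitals mark every CANNTG, which reads the same on both strands. The Nrgn window lies at chr9:37552696-37552995 on the minus strand and the Cd8a window at chr6:71373177-71373476 on the plus strand.
Nrgn promoter: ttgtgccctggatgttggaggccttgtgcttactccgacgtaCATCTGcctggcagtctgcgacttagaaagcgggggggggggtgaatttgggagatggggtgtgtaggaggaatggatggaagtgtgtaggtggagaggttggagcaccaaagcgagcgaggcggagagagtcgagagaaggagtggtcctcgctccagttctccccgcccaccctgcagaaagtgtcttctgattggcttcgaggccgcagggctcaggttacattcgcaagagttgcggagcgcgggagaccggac
Cd8a promoter: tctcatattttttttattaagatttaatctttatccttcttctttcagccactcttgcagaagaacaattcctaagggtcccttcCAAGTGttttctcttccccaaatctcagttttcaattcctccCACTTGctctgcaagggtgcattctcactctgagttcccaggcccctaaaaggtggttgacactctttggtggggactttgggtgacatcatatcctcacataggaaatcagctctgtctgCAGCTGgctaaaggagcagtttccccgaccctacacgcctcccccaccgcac
Nrgn held 1 match, CATCTG, at position -208 from the start, and Cd8a held 3, CAAGTG at -165, CACTTG at -123 and CAGCTG at -2. Of 32851 RefSeq mouse promoters of the same length, 72.3% held at least 1 CANNTG and 17.6% held at least 3, and 33.0% held CAGCTG or CACCTG. The letters are a description of the windows and were not tested for binding. A window was listed for 6 of the 10 members.

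All 10 members were detected in all 6 libraries (levels as log2(FPKM + 1), per length of transcript, so that genes can be set beside each other). Cd8b1 was the most abundant member and Nrgn the least in every library. The order Cd8b1, Cd8a, Cd4, Arpp21, Aqp11 held at the top in 5 libraries, and in L-DKO replicate 2 Cd4 stood above Cd8a. The coreceptors lay between the 98.9th and 99.5th percentile of the genes of their library, Arpp21 and Aqp11 between the 97.4th and 98.2nd, and Themis, Cd24a and Trat1 between the 85.9th and 96.0th. Cd2 moved between the 78.5th and 95.8th percentile and Nrgn between the 7.29th and 75.7th. Over the 6 libraries the median member spanned a log2 range of 0.45, against a median range of 0.86 over 12063 genes tested and of 0.51 over the 1744 genes with a mean of at least 64 FPKM, a level that 9 of the 10 members reached. Cd2, Trat1 and Nrgn were the members with a range above 0.51. By these levels, transcripts of the coreceptors and of the other stage markers except Nrgn were abundant in every library, as the label of the cells says.

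**Figure D1:**
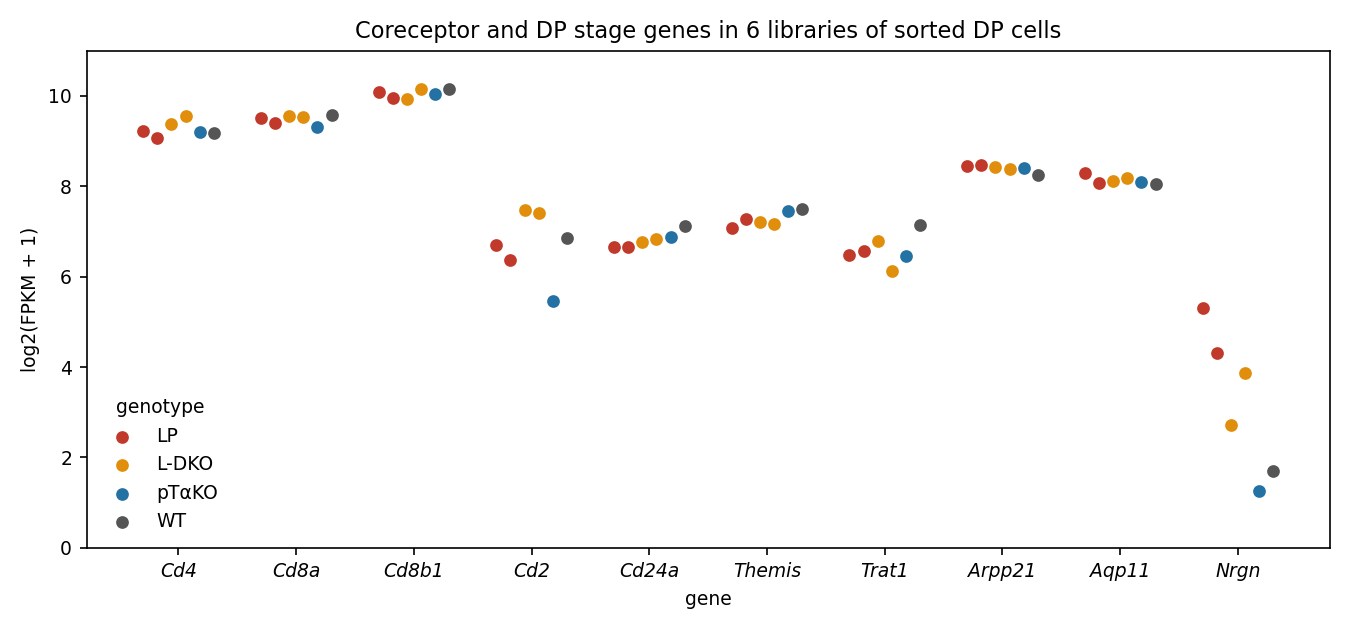
Level of each of the 10 genes, as log2(FPKM + 1) on the vertical axis, in the 6 libraries, with 1 point per library coloured by genotype (LP 2, L-DKO 2, pTαKO 1, WT 1). The coreceptors, Arpp21 and Aqp11 sit in tight groups between 8.05 and 10.15, while Cd2 spans 5.47 to 7.47 and Nrgn 1.25 to 5.30.

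The libraries differ in ways that bear on these values. Among tested genes the library medians lay between 3.95 and 4.03 on the log2 scale, but the 20 most abundant entries took from 29.97% of all FPKM in WT to 72.6% in LP replicate 2. Sequencing depth is not given, so no counting interval can be attached to a level. Id2 was at 1.92 and 0.99 in LP mice, 1.00 and 0.24 in L-DKO mice, 1.87 in pTαKO and 3.56 in WT, and Id3 at 1.96 and 3.18 in LP mice, 1.91 and 3.32 in L-DKO mice, 5.25 in pTαKO and 6.22 in WT. Id3 was thus lower in every library labelled as Id-deleted, while Id2 in LP replicate 1 was as high as in pTαKO. Ptcra, which encodes pTα, was at 5.35 and 5.87 in LP mice, 6.35 and 6.62 in L-DKO mice, 5.75 in pTαKO and 5.06 in WT; which exons the pTα allele lacks is not given in the sources used here, so its level checks nothing about the label. The Y-linked gene Ddx3y was at 0.63 in LP replicate 2 and 0.67 in pTαKO, and between 4.21 and 5.14 in the other libraries.

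Cd4 was the coreceptor with the widest range (chromosome 6, 124864693 to 124888247 on GRCm38.p6). It was measured at 9.23 and 9.08 in LP mice, 9.38 and 9.55 in L-DKO mice, 9.20 in pTαKO and 9.18 in WT, which is 601 and 540 FPKM in LP, 666 and 750 FPKM in L-DKO, 586 FPKM in pTαKO and 578 FPKM in WT. Both L-DKO libraries were above all others. The difference of LP from L-DKO was -0.31 ± 0.16 (limma, SE on the log2(FPKM + 1) scale, adjusted p = 0.547 by Benjamini-Hochberg over all genes tested), and that of L-DKO from WT was 0.29 ± 0.19 (adjusted p = 0.999 in the same fit), so neither passed the threshold of 0.05. LP and WT differed by -0.02 ± 0.19.

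Cd8a and Cd8b1 lie next to each other on chromosome 6, at 71373427 to 71379171 and at 71322788 to 71337492, and encode the alpha and beta chains of CD8. Cd8a was at 9.50 and 9.41 in LP mice, 9.56 and 9.54 in L-DKO mice, 9.31 in pTαKO and 9.57 in WT. All 3 pTα-deficient libraries were below all 3 pTα-sufficient ones, with an average difference of -0.18 ± 0.13 (limma, adjusted p = 0.69), a gap close to its standard error. Cd8b1 was at 10.10 and 9.96 in LP mice, 9.93 and 10.14 in L-DKO mice, 10.04 in pTαKO and 10.15 in WT. Here the groups overlapped, with a difference of -0.01 ± 0.18 between LP and L-DKO and of -0.12 ± 0.22 between LP and WT.

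A p above the threshold does not show equal levels, so the 95% intervals of the 3 coreceptors are given as bounds. The farthest bound of any coreceptor was 0.72 on the log2 scale (1.65-fold) between LP and L-DKO, 0.79 (1.73-fold) between L-DKO and WT, and 0.68 (1.61-fold) between LP and WT. Averaged over Id status, pTα-deficient and pTα-sufficient libraries had bounds of up to 0.51 (1.42-fold), and averaged over pTα status, Id-deleted and Id-intact libraries of up to 0.48 (1.39-fold). Differences of the coreceptors larger than these lie outside the intervals. For the interaction, the extent to which the effect of Id deletion differs with pTα status, the bound was 1.04 (2.05-fold), so a 2-fold interaction lies inside it.

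Ratios within a library do not depend on its scaling. The ratio of Cd8b1 to Cd8a in FPKM was 1.51 and 1.47 in LP, 1.30 and 1.53 in L-DKO, 1.66 in pTαKO and 1.495 in WT. Cd4 over Cd8a was 0.829 and 0.796 in LP, 0.884 and 1.01 in L-DKO, 0.923 in pTαKO and 0.761 in WT. Cd4 over Cd8b1 was 0.549 and 0.543 in LP, 0.681 and 0.663 in L-DKO, 0.556 in pTαKO and 0.509 in WT. The 2 L-DKO libraries thus had the highest Cd4 relative to Cd8b1, with replicates closer to each other than to any other library, and the balance of the CD8 chains overlapped between LP and L-DKO. These ratios are a description and were not tested.

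**Figure D2:**
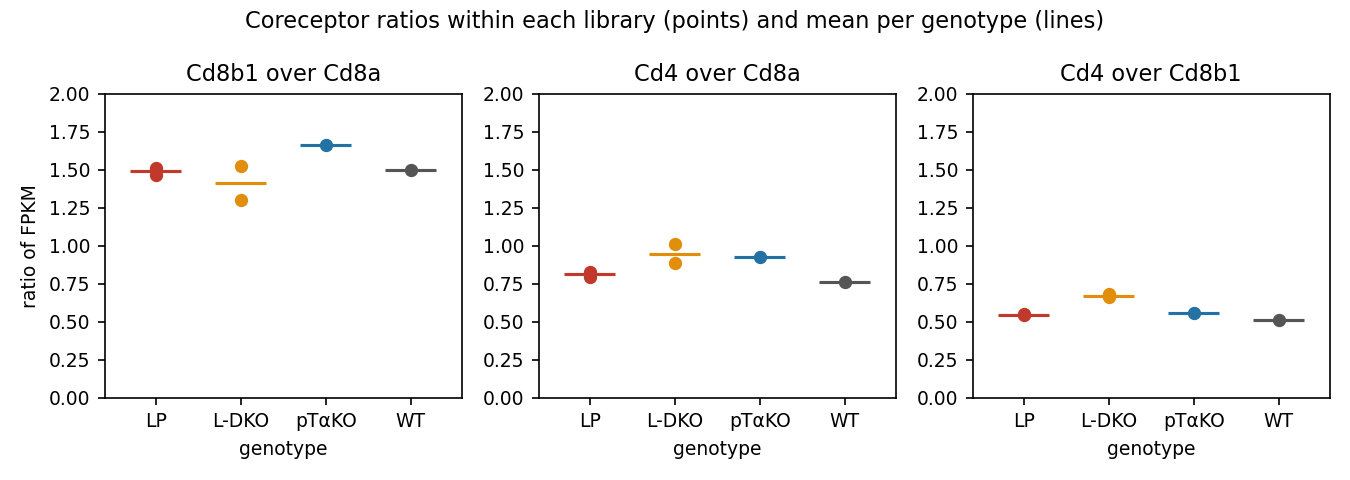
Ratios of FPKM within each library on the vertical axis (Cd8b1 over Cd8a, Cd4 over Cd8a, Cd4 over Cd8b1), by genotype, with points for libraries and lines for the mean of each genotype. Cd4 over Cd8b1 is 0.681 and 0.663 in L-DKO and between 0.509 and 0.556 elsewhere.

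Cd2, an adhesion molecule of T cells whose ligand in the mouse is CD48 (gene at chromosome 3, 101275908 to 101287939), was the member that followed pTα status most closely. It was at 6.71 and 6.37 in LP and 5.47 in pTαKO, against 7.47 and 7.41 in L-DKO and 6.86 in WT. In FPKM these were 104 and 81.5 in LP and 43.4 in pTαKO, against 176 and 169 in L-DKO and 115 in WT. Every pTα-deficient library lay below every pTα-sufficient one. The average difference of pTα-deficient from pTα-sufficient libraries was -1.14 ± 0.15 (limma, unadjusted p = 0.00061, adjusted p = 0.096), the lowest adjusted p of any member in the 60 tests made, and it missed the threshold of 0.05.

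Within Id-deleted cells, where both genotypes have 2 libraries, Cd2 averaged 92.7 FPKM in LP and 172 FPKM in L-DKO, 1.86-fold lower in LP. The difference was -0.90 ± 0.17 on the log2 scale (limma, unadjusted p = 0.0033, adjusted p = 0.28). The lowest of all libraries was pTαKO, whose Cd2 was 2.65-fold below that of WT, 1 library each and with no test. Averaged over pTα status, the difference of Id-deleted from Id-intact libraries was 0.82 ± 0.15 (unadjusted p = 0.0026, adjusted p = 0.41 in limma), but the groups overlapped and the average rests in part on the low level of the 1 pTαKO library. Both LP libraries were below WT, with a difference of -0.32 ± 0.21 (adjusted p = 0.94 in limma), which was -0.15 without LP replicate 2 and -0.49 without LP replicate 1. With pTα present, L-DKO exceeded WT by 0.58 ± 0.21 (unadjusted p = 0.039, adjusted p = 0.999 in the same fit). The interaction was 0.49 ± 0.29 (adjusted p = 0.996), with an interval of -0.27 to 1.24, so these libraries do not settle whether the deletions add.

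The 2 libraries with the lowest Ddx3y, LP replicate 2 and pTαKO, also had the lowest Cd2. Ddx3y is Y-linked, so its level follows the sex of the mouse, and both of these libraries were pTα-deficient. Without LP replicate 2 the difference of Cd2 between LP and L-DKO was -0.73, among libraries with Ddx3y above 4. Between pTαKO and WT, sex as read from Ddx3y and pTα status cannot be told apart, and the part of sex was not tested. In bulk RNA, fewer cells of a type and less RNA per cell cannot be told apart.

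**Figure D3:**
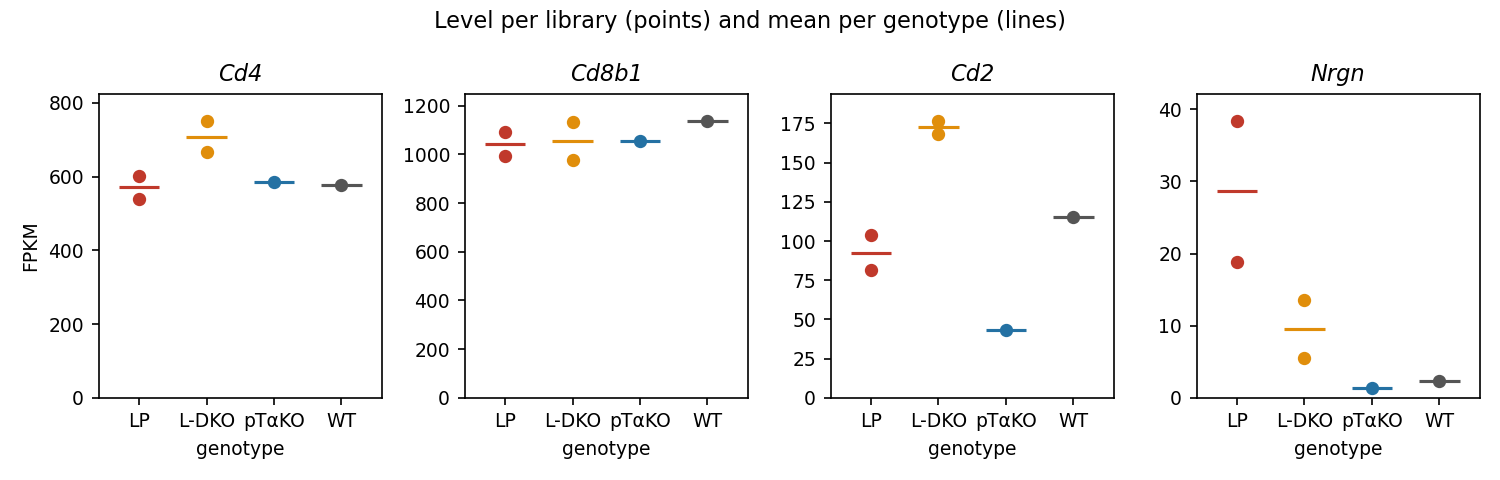
Level in FPKM on the vertical axis of Cd4, Cd8b1, Cd2 and Nrgn by genotype, with 1 point per library and a line at the mean of each genotype. Cd2 is lowest in pTαKO (43.4 FPKM) and highest in L-DKO (169 and 176 FPKM), and Nrgn is highest in LP (18.9 and 38.4 FPKM).

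Nrgn encodes neurogranin, a small protein that binds calmodulin and is best known from neurons (chromosome 9, 37544493 to 37552745). It had the widest range of the members, 27.8-fold in FPKM. It was at 5.30 and 4.31 in LP, at 2.71 and 3.86 in L-DKO, and 1.25 in pTαKO and 1.71 in WT, which is 38.4 and 18.9 FPKM in LP, 5.56 and 13.5 FPKM in L-DKO, 1.38 FPKM in pTαKO and 2.27 FPKM in WT. All 4 Id-deleted libraries were above both Id-intact ones, and both LP libraries were above both L-DKO ones. Replicates of this gene were also the farthest apart, with SDs of 0.70 in LP and 0.81 in L-DKO.

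Averaged over pTα status, Id-deleted libraries exceeded Id-intact ones by 2.57 ± 0.48 for Nrgn (limma, unadjusted p = 0.0033, adjusted p = 0.45). LP averaged 28.6 FPKM and WT 2.27 FPKM, a ratio of 12.6 and a log2 difference of 3.10 ± 0.68 (unadjusted p = 0.0064, adjusted p = 0.45 in limma). LP was 2.996-fold above L-DKO in mean FPKM, with a log2 difference of 1.52 ± 0.55 (adjusted p = 0.43 in limma). Leaving out L-DKO replicate 1 brought that difference to 0.94 and leaving out replicate 2 to 2.09, while dropping LP replicate 1 gave 1.02 and dropping LP replicate 2 gave 2.01. L-DKO was 4.21-fold above WT, with a log2 difference of 1.58 ± 0.68, which became 2.15 when L-DKO replicate 1 was left out and 1.004 when its replicate 2 was. Averaged over Id status, the difference of pTα-deficient from pTα-sufficient libraries was 0.53 ± 0.48 and its interval ran from -0.71 to 1.77, with 0.24 when L-DKO replicate 1 was left out and 0.28 when LP replicate 1 was. None passed after adjustment, and the low level of the gene makes a log2(FPKM + 1) difference smaller than the ratio of FPKM.

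Cd24a, a glycolipid-anchored surface protein (heat-stable antigen) that is high on immature thymocytes, was measured at 6.66 and 6.65 in LP mice, 6.78 and 6.83 in L-DKO mice, 6.87 in pTαKO and 7.13 in WT. The gene lies on chromosome 10, 43579169 to 43584265. All Id-deleted libraries were below both Id-intact ones, with an average difference of -0.27 ± 0.11 (limma, adjusted p = 0.78). LP was 1.39-fold below WT in mean FPKM, with a log2 difference of -0.47 ± 0.15 (limma, unadjusted p = 0.029, adjusted p = 0.74).

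Themis, a thymocyte protein that is needed for efficient selection and binds Grb2 and the phosphatase SHP-1, showed the same order of Id groups (chromosome 10, 28668360 to 28883820). Its level was 7.08 and 7.29 in LP, 7.20 and 7.16 in L-DKO, 7.45 in pTαKO and 7.50 in WT. The average difference of Id-deleted from Id-intact libraries was -0.30 ± 0.12 (limma, adjusted p = 0.79), and LP differed from L-DKO by 0.00 ± 0.14.

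Trat1 encodes TRIM, an adaptor associated with the TCR that binds the regulatory subunit of PI3-kinase (chromosome 16, 48730774 to 48810547). It was at 6.48 and 6.57 in LP mice, 6.80 and 6.13 in L-DKO mice, 6.45 in pTαKO and 7.15 in WT. WT was above all others, but the 2 L-DKO libraries lay on either side of the LP libraries and had an SD of 0.47. LP differed from WT by -0.62 ± 0.31 and L-DKO from WT by -0.68 ± 0.31 (limma, adjusted p = 0.876 for LP and 0.999 for L-DKO), and the L-DKO value became -1.02 when L-DKO replicate 1 was left out and -0.35 when its replicate 2 was.

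Arpp21, a cAMP-regulated phosphoprotein that binds RNA and is abundant in DP cells (chromosome 9, 112065091 to 112236288), was at 8.45 and 8.48 in LP mice, 8.44 and 8.39 in L-DKO mice, 8.40 in pTαKO and 8.26 in WT. Aqp11, a water channel of intracellular membranes (chromosome 7, 97726379 to 97738247), was at 8.29 and 8.07 in LP mice, 8.11 and 8.18 in L-DKO mice, 8.09 in pTαKO and 8.05 in WT. Neither gene differed by more than 0.24 between any 2 libraries, and the largest test value was 0.21 ± 0.16 for Arpp21 between LP and WT. The RefSeq span of Arpp21 overlaps 4 annotated genes, the microRNA gene Mir128-2 among them, and that of Trat1 overlaps the pseudogene Gm8670. Whether strand was used in counting is not given in the sources used here, so reads of overlapping genes may be included.

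Between pTαKO and WT, with 1 library each and so no test, Cd2 had the largest gap of the members, -1.39 on the log2 scale. Trat1 followed at -0.70 and Nrgn at -0.46. Cd8a and Cd24a were each at -0.26, and Cd8b1, Themis, Cd4, Aqp11 and Arpp21 lay between -0.11 and 0.14. The pTαKO library was thus measured with Cd2 and Trat1 lower and most stage markers close to WT, in 1 mouse of each genotype. The 2 mice also differed in Ddx3y (0.67 in pTαKO and 4.36 in WT), so loss of pTα and sex cannot be told apart here.

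**Figure D4:**
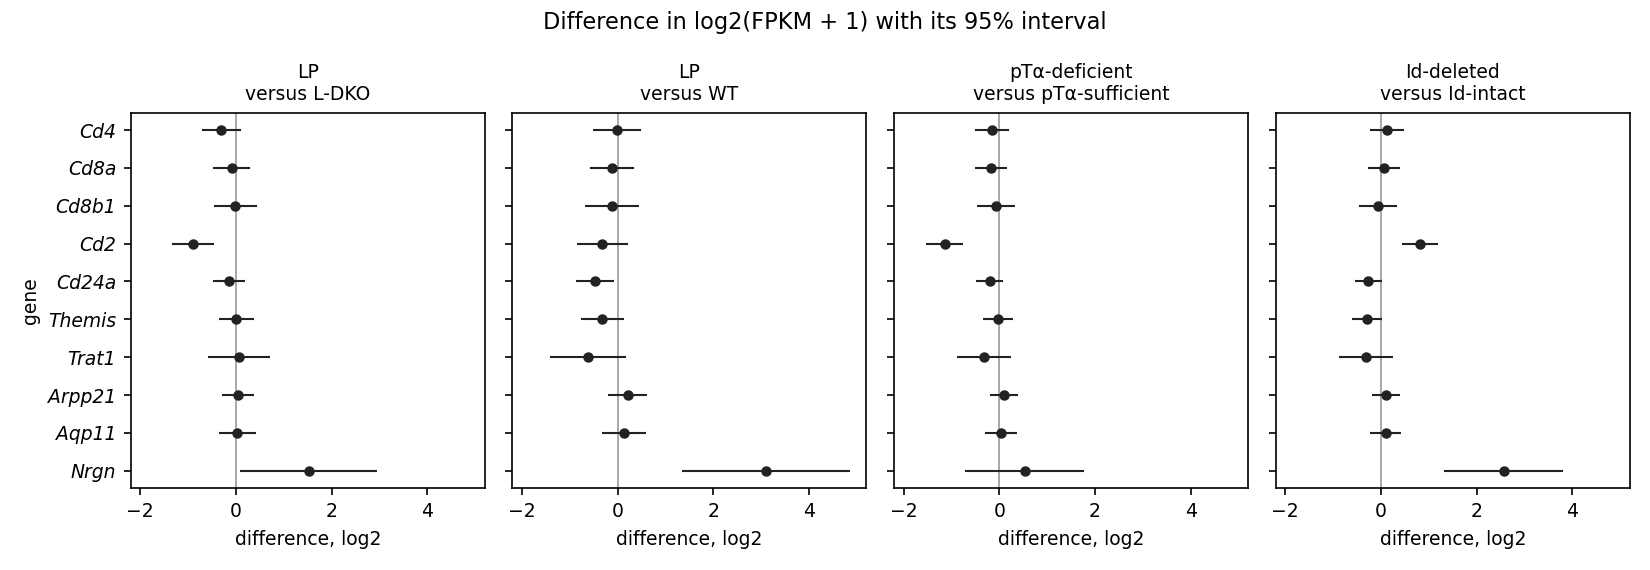
Differences of the 10 genes on the log2(FPKM + 1) scale (horizontal axis) with 95% intervals from limma, for LP versus L-DKO, LP versus WT, pTα-deficient versus pTα-sufficient and Id-deleted versus Id-intact libraries. Cd2 lies at -1.14 between pTα groups and Nrgn at 2.57 between Id groups, and the coreceptors lie within 0.31 of 0 in the 4 comparisons.

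No member passed an adjusted p of 0.05 in any of the 6 comparisons by limma, and few genes of the whole table did. The share of all 12063 genes called was 0.0166% between LP and L-DKO, 0.0414% between L-DKO and WT, 0.058% between LP and WT, 0.116% between pTα groups, 0.0829% between Id groups and 0.0497% for the interaction. At an unadjusted p under 0.05, 2 of 10 members stood out between LP and L-DKO (Cd2 lower and Nrgn higher) where 11.1% of all genes did. The same count was 1 of 10 between L-DKO and WT (Cd2 higher, background 4.34%) and 2 of 10 between LP and WT (Cd24a lower and Nrgn higher, background 6.08%). It was 1 of 10 between pTα groups (Cd2 lower, background 10.7%), 2 of 10 between Id groups (Cd2 and Nrgn higher, background 6.49%) and 0 of 10 for the interaction (background 4.46%). In a list of 10 genes these counts do not set the members apart from the table. The comparisons share libraries, so their counts are not independent.

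Groups that did not overlap give a like picture. Between LP and L-DKO, with 2 libraries each, 2 members were higher in both LP libraries (Arpp21 and Nrgn) where 22.3% of all genes were, and 4 were lower (Cd4, Cd8a, Cd2 and Cd24a) where 22.2% were. Between pTα groups, with 3 libraries each, 0 members were higher against 9.94% of all genes, and 2 were lower (Cd8a and Cd2) against 8.8%. Between Id groups, with 4 and 2 libraries, 1 member was higher (Nrgn) against 6.94%, and 2 were lower (Cd24a and Themis) against 5.87%. When the libraries were shifted to the same median, Arpp21 no longer separated LP from L-DKO and did separate the Id groups. The median difference over the 10 members was -0.0036 between LP and L-DKO against 0.0014 over all genes, -0.12 against 0.02 between LP and WT, -0.10 against 0.01 between pTα groups and 0.08 against 0.01 between Id groups.

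The level of Cd4 across the 6 libraries was most like that of Cggbp1 (Pearson r = 0.993), Csnk1a1 (0.992) and Thap2 (0.990), and that of Cd8a most like Adrbk1 (0.996), Il12rb1 (0.992) and Trav7d-2 (0.984), out of 9706 genes with a mean of at least 4 FPKM. None of these was a member. Among pairs of members the strongest relations were those of Cd8a with Cd2 (0.918) and of Cd24a with Arpp21 (-0.979). These are descriptions over 6 libraries, which share the scaling of each library and the groups.

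Other genes of the DP stage gave the background of the members. Of 26 listed, 22 were measured and 0 passed an adjusted p of 0.05 by limma in any comparison. Between LP and L-DKO, 6 were higher and 12 lower without overlap, where 22.3% of all genes were higher and 22.2% lower, and the median difference was -0.16 against 0.0014 over all genes. Mns1, named for a nuclear structural protein of meiosis, was at 5.12 and 5.16 in LP mice, 5.95 and 6.07 in L-DKO mice, 5.81 in pTαKO and 6.14 in WT. Ccr9, a chemokine receptor of thymocytes, was at 7.70 and 7.58 in LP mice, 8.24 and 8.17 in L-DKO mice, 7.53 in pTαKO and 8.21 in WT, an arrangement by pTα status that Cd2 also had. The summed level of the list was 6003 and 5856 FPKM in LP, 6329 and 6588 FPKM in L-DKO, 5682 FPKM in pTαKO and 6252 FPKM in WT.

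Of 23 listed regulators of the coreceptor loci, 18 were measured, 0 passed, and 3 were higher and 10 lower in LP than in L-DKO without overlap (22.3% and 22.2% of all genes), with a median of -0.28. Some of them, such as Lef1, Myb and Ikzf1, also stand on the list of DP stage genes. Tox, a nuclear factor that CD4 lineage development needs, was at 3.83 and 4.07 in LP mice, 4.68 and 4.80 in L-DKO mice, 3.57 in pTαKO and 4.64 in WT, and its LP to L-DKO difference was -0.79 ± 0.21 (limma, adjusted p = 0.35). Lef1 was higher in LP than in L-DKO by 0.52 ± 0.19. Runx3, which silences Cd4 in the CD8 lineage, was at 1.12 and 1.61 in LP mice, 2.00 and 1.65 in L-DKO mice, 2.14 in pTαKO and 1.79 in WT, all far below the coreceptors it acts on.

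Of 20 listed partners of the encoded proteins, 19 were measured, 0 passed, and 6 were higher and 7 lower in LP than in L-DKO without overlap (22.3% and 22.2% of all genes). Lck, the kinase that CD4 and CD8 alpha carry, was at 10.01 and 10.10 in LP mice, 10.09 and 10.32 in L-DKO mice, 10.16 in pTαKO and 10.03 in WT, as level as the coreceptors. Cd48, the ligand of CD2, was at 4.63 and 4.76 in LP mice, 4.13 and 4.64 in L-DKO mice, 4.81 in pTαKO and 4.80 in WT, with overlapping levels where Cd2 separated. Ptpn6, which encodes the SHP-1 that Themis binds, had an LP to L-DKO difference of -0.62 ± 0.14 (limma, adjusted p = 0.32). Pik3r1, a partner of Trat1, was at 5.62 and 5.28 in LP mice, against 6.49 and 6.47 in L-DKO mice. The light chain of MHC class I, B2m, was at 9.27 and 8.86 in LP and 9.29 in pTαKO, against 7.82 and 7.999 in L-DKO and 7.94 in WT, and H2-D1 and H2-K1, class I heavy chains bound by CD8, exceeded their L-DKO levels in LP by 1.34 ± 0.30 and 1.26 ± 0.35. These 3 class I genes and Pik3r1 are named because their LP to L-DKO differences were the largest of the list, and none of them passed adjustment. Lck, Cd48, Ptpn6 and Runx3 were chosen for mention after their values were seen.

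Markers of other cell types moved with the genotypes beside Cd2 and Nrgn. A gate on CD4+ CD8+ cells without TCRγδ removes double-negative (DN) cells and γδ T cells, and CD1d tetramer-negative LP cells, as the results of the study name them, exclude iNKT cells, although the labels list no tetramer; transcripts of these lists were nevertheless measured. Of 12 measured genes of the earlier DN stage, 8 were higher and 1 lower in pTα-deficient libraries without overlap, where 9.94% of all genes were higher and 8.8% lower, with a summed level of 291 and 343 FPKM in LP and 368 FPKM in pTαKO, against 132 and 106 FPKM in L-DKO and 42.3 FPKM in WT. The Notch target Dtx1 was the listed gene that passed, at 7.30 and 7.70 in LP and 7.50 in pTαKO, against 5.59 and 5.73 in L-DKO and 3.67 in WT (limma, 2.84 ± 0.16 between pTα groups, adjusted p = 0.023). The DN sum rested largely on Dtx1, at up to 207 FPKM in LP replicate 2, and on Notch3, at up to 93.3 FPKM in pTαKO. Of the other DN genes, Il2ra, Kit and Cd44 overlapped between pTα groups, and Nrarp was the lower one. Il2ra was at 3.31 in LP replicate 1 and 3.44 in L-DKO replicate 1. Of 17 measured myeloid and dendritic genes, 9 were higher and 0 lower between the same groups (the same background), and the sum was 284 and 252 FPKM in LP and 833 FPKM in pTαKO, against 182 and 159 FPKM in L-DKO and 202 FPKM in WT. The library with the lowest Cd2 was the one with the highest sum of myeloid and of DN genes, and LP, with the next lowest Cd2, had the next highest. The order did not hold throughout. WT had the lowest DN sum, yet its Cd2 (115 FPKM) was below that of L-DKO (176 and 169 FPKM). Of the LP libraries, replicate 2 had the lower Cd2, the lower myeloid sum and the higher DN sum. The part of such cells, which the gate should remove in the case of DN cells, in the level of Cd2 was not tested.

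The 14 measured genes of the single-positive and post-selection stages summed to 224 and 208 FPKM in LP and 143 FPKM in pTαKO, against 356 and 339 FPKM in L-DKO and 319 FPKM in WT, the same order of libraries as for Cd2. Of them 1 was higher and 4 were lower in pTα-deficient libraries without overlap, against 9.94% and 8.8% of all genes. The 8 measured genes of innate-like, NK and iNKT cells summed to 210 and 173 FPKM in LP and 61.2 and 61.3 FPKM in L-DKO, against 128 FPKM in pTαKO and 38.2 FPKM in WT, highest in LP as Nrgn was. That sum rested largely on Gzma, at up to 182 FPKM in LP replicate 1. In L-DKO, Gzma was at 5.72 and 5.75 on the log2 scale, so the sums say little of the other listed genes. The 6 measured genes of γδ T cells summed to between 22.1 and 53.0 FPKM, although the gate leaves out TCRγδ+ cells. Their sum was 37.7 and 53.0 FPKM in LP and 37.4 FPKM in pTαKO. The 5 of B cells summed to between 24.8 and 71.6 FPKM and were highest in LP. That ranking rested largely on Jchain, at up to 29.6 FPKM in LP replicate 2. Cd79b and Blnk were highest in pTαKO, and Ighd and Igkc in L-DKO replicate 1. Red cell and platelet genes (6 measured) summed to 3015 and 1737 FPKM in LP, 715 and 3326 FPKM in L-DKO, 2631 FPKM in pTαKO and 731 FPKM in WT, with no split by genotype. Of thymic epithelial and stromal genes 3 of 14 were measured. No measured marker of these lists was at 0 in every library, and their part in the level of Nrgn was not tested.

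**Figure D5:**
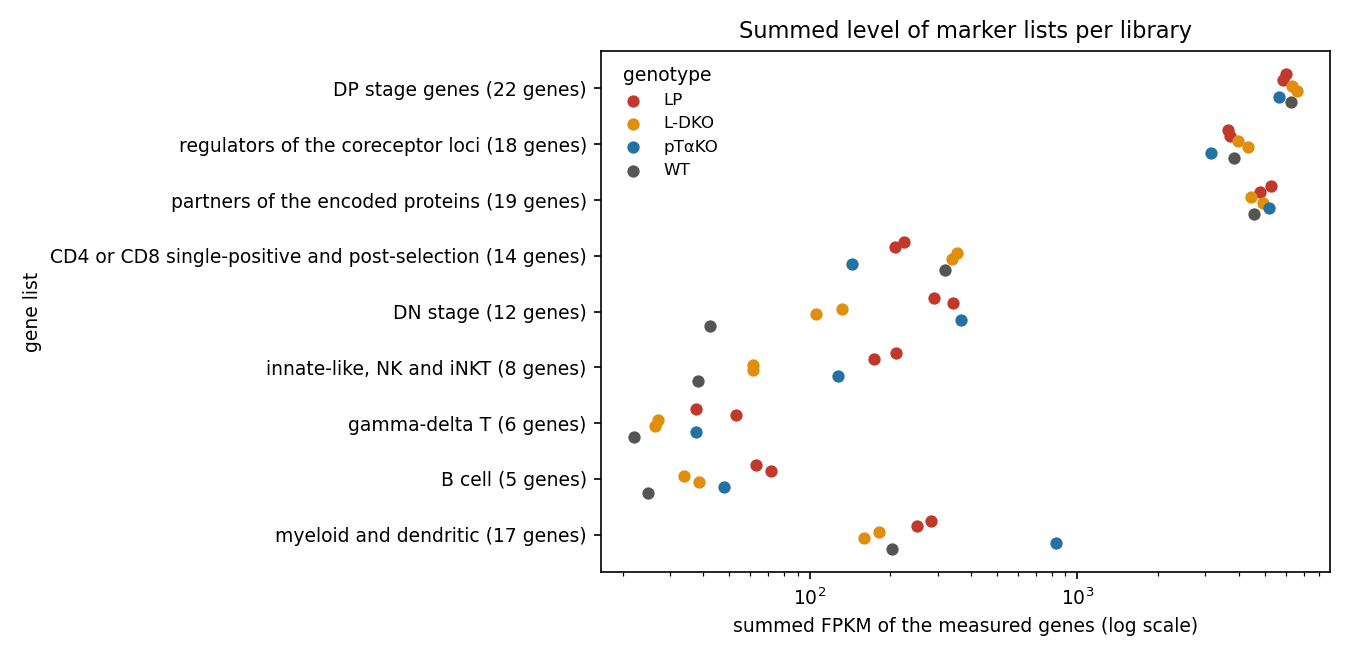
Summed FPKM of the measured genes of 9 marker lists (vertical axis) in each library, on a log axis, coloured by genotype. DP stage genes lie between 5682 and 6588 FPKM in all libraries, and DN stage genes between 291 and 368 FPKM in LP and pTαKO against 42.3 to 132 FPKM in L-DKO and WT.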

How the data were processed

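RNA-Seq values were taken from 1 deposited table of 6 libraries. Per the labels, poly(A) RNA was primed with random hexamers. The methods of the study describe depletion of ribosomal RNA and random primers for an earlier round of sequencing. They give no library preparation for this round. Per the submitters' processing notes, the authors used Trimmomatic 0.32 for trimming, TopHat2 2.0.9 for alignment against mm10, and Cufflinks 2.2.0 for the FPKM of each gene. The deposited values are log2 FPKM with a minimum of 0, read here as log2(FPKM + 1). The authors' columns of group means and of fold changes were not used. The table held 13097 entries, and where a symbol recurred the entry with the highest mean was kept. Hyphens written as NA were restored in 297 entries.

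Genes with a mean of at least 0.5 FPKM (12063) were fitted with 1 mean per group in limma 3.58.1 (R 4.3.3, eBayes with trend, two-sided, Benjamini-Hochberg adjustment, threshold 0.05), with 2 residual degrees of freedom and 2.88 from the prior. WT and pTαKO, 1 library each, were assumed to vary like LP and L-DKO. No log2 fold or p of pTαKO against WT was tested. The p-values set a difference against the spread between the 2 LP and between the 2 L-DKO libraries, together with the prior over genes. They hold no information on the spread within WT or pTαKO. The script was tested on simulated data. Alternatives were the pseudocount, the filter, library scaling, the variance prior, summed entries, an additive model, a replicate block and leaving out libraries. The named genes were the 10 members, the 3 genes most correlated with Cd4 and with Cd8a, and up to 4 genes per list, those past the threshold and then those without overlap and with the largest LP to L-DKO difference. Members and lists were chosen with earlier results of these data known.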

Additional observations from a re-analysis of the deposited data

How the results depend on the processing

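Of 660 values of the members under alternatives, 641 kept their sign and their side of the threshold, 19 changed sign and 0 passed an adjusted p of 0.05 in limma, with the lowest at 0.086 for Cd2 between pTα groups. Cd2 there ran from -1.23 to -1.06 (adjusted p 0.086 to 0.38), and Nrgn between Id groups from 2.28 to 3.04 (adjusted p 0.41 to 0.79). The sign changes were of differences under 0.1 in size in the reported fit. Leaving out 1 library gave -0.12 to 0.0934 for Cd8b1, -0.0973 to 0.11 for Themis, -0.27 to 0.39 for Trat1 and -0.0799 to 0.14 for Aqp11 between LP and L-DKO, -0.0986 to 0.0547 for Cd4 between LP and WT, -0.0736 to 0.0283 for Themis and -0.0199 to 0.0914 for Aqp11 between pTα groups, and -0.0074 to 0.20 for Cd8b1, -0.0474 to 0.16 for Themis and -0.12 to 0.10 for Aqp11 in the interaction. With equal medians Themis was at -0.0128 between LP and L-DKO, and Aqp11 at -0.0104 between pTα groups and 0.0488 in the interaction. With quantile normalization Cd4 was at 0.0164 between LP and WT and Aqp11 at 0.0372 in the interaction.

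The number of genes called moved more, and the cause was not tested. Between LP and L-DKO it was 2, with 4 under quantile normalization, 1 without the trend and 2 to 12 with a library left out (12 without LP replicate 1, 8 without LP replicate 2, 5 without L-DKO replicate 2). Between L-DKO and WT it was 5, with 0 without the trend, 3 with entries summed and 0 to 13 with a library left out (13 without either LP library, 0 without L-DKO replicate 2, 2 without L-DKO replicate 1). Between LP and WT it was 7, with 1 without the trend and 3 to 13 (13 without either LP library, 3 without either L-DKO library). Between pTα groups it was 14, with 3 without the trend, 32 in the additive model and 4 to 21 (4 and 5 without an L-DKO library). Between Id groups it was 10, with 5 without the trend, 2 in the additive model and 8 to 20 (17 and 20 without an LP library). For the interaction it was 6, with 4 to 15 (13 and 15 without an LP library). Same-numbered libraries of LP and L-DKO did not deviate together (correlation 0.035), so numbers were not taken as pairs, and a replicate block over these 4 libraries called 2 genes and 0 members. Leaving out pTαKO, an alternative chosen after seeing the data, left 2, 5 and 7 genes and 0 members in the comparisons among LP, L-DKO and WT. WT and pTαKO had 1 library each, and depth is not given.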
